A study of Mus musculus with 2 samples.

Results

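The Bcl2 family genes examined here are 10 mouse genes that decide whether a cell lives or dies through its mitochondria, set out as 3 pro-survival genes (Bcl2, Bcl2l1 and Mcl1) and 7 pro-death genes (Bcl2l11, Bax, Bak1, Bbc3, Pmaip1, Bid and Bad). They were taken by name from the 21938 protein-coding genes of GENCODE M21, and accessible regions were read within each gene body and 50 kb on either side. On mm10, the pro-survival genes are chr1:106538178-106714274 (Bcl2), chr2:152780668-152831728 (Bcl2l1) and chr3:95658788-95663176 (Mcl1). Pro-death genes are chr2:128126038-128162547 (Bcl2l11), chr7:45461697-45466898 (Bax), chr17:27019810-27029009 (Bak1), chr7:16308393-16318205 (Bbc3), chr6:120891930-120916853 (Bid) and chr19:6941861-6951899 (Bad). The assay was DNase I-seq, in which the nuclease DNase I cuts open chromatin more often than packed chromatin. The tissue was whole thymus of male B6CASTF1/J mice aged 2 months (F1 hybrids of the strains C57BL/6J and CAST/EiJ), in 1 group of 2 replicates for which the labels give no treatment. The labels number a separate animal for each replicate but give both the same donor identifier, so the spread between the replicates may be partly technical. Nothing was compared between conditions, and with 2 samples no test was made; the contrasts are between genes and between peaks, with the values of each replicate.

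The family works by binding between its own members. Bax and Bak1 form pores in the outer mitochondrial membrane, which release cytochrome c and start the caspases. Bcl2, Bcl2l1 (Bcl-xL) and Mcl1 hold them in check, and the BH3-only proteins Bcl2l11 (Bim), Bbc3 (Puma), Pmaip1 (Noxa), Bid and Bad free or activate them. In the thymus the balance is known for setting the lifetime of CD4+ CD8+ thymocytes, which depend on Bcl2l1 and Mcl1, and Bim is known for the death of thymocytes that bind self antigen strongly.

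Strict peak lists of 62230 regions in replicate 1 and 66839 in replicate 2 shared 51709 regions. The peak score is the submitters' signal value, and the sequencing depth behind it is unknown. The scores ran higher in replicate 1, with medians of 1.58 and 1.37 over all peaks. Across all shared peaks, replicate 2 stood at a median log2 ratio to replicate 1 of -0.22. Of marker genes, 12 of 12 T lineage genes had a promoter peak in both replicates, against 2 of 6 for thymic epithelium, 1 of 4 each for myeloid and erythroid genes and 2 of 4 each for fibroblasts and endothelium. Foxn1, Csf1r, Adgre1, Klf1 and Cdh5 were without a promoter peak in either replicate. In whole tissue, a peak that is open in fewer cells and a peak that is cut less often per cell cannot be told apart.

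All 10 members had an accessible promoter in both replicates, where a promoter counts as accessible when a strict peak lies within 1000 bp of one of the gene's annotated starts of transcription (TSSs). Over all protein-coding genes the share was 59.0% (12935 of 21938). The parts of the strongest promoter peaks of 6 members that lie outside annotated exons are printed here because the motif matches described further on lie in them. Each is the part called in both replicates, on the GRCm38.p6 reference (the C57BL/6J sequence, so CAST alleles are not represented), written 5′ to 3′ on the strand of the gene, with the bases inside footprints of both replicates in capitals. A footprint is a short stretch that the submitters called as protected from cutting. The stretches are chr2:152831201-152831480 (minus strand, intron of Bcl2l1 next to its 5′ end), chr3:95658601-95658787 (plus strand, just upstream of Mcl1), chr2:128125861-128126037 (plus strand, just upstream of Bcl2l11), chr7:16309421-16309615 (plus strand, intron of Bbc3), chr6:120916854-120916980 (minus strand, just upstream of Bid) and chr7:45466899-45467000 (minus strand, just upstream of Bax).
Bcl2l1 promoter: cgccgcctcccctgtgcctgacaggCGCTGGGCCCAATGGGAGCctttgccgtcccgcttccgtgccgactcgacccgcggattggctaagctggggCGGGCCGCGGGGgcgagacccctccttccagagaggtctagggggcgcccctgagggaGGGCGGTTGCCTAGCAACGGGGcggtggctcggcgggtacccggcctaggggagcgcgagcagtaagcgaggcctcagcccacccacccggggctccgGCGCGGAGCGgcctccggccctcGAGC
Mcl1 promoter: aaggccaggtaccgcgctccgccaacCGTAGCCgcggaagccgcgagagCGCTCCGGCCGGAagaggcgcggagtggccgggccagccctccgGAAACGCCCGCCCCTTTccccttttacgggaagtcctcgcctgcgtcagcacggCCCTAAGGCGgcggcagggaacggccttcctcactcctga
Bcl2l11 promoter: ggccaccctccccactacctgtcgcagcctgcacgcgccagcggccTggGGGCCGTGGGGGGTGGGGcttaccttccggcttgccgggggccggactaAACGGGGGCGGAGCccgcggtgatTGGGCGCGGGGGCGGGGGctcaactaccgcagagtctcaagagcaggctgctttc
Bbc3 promoter: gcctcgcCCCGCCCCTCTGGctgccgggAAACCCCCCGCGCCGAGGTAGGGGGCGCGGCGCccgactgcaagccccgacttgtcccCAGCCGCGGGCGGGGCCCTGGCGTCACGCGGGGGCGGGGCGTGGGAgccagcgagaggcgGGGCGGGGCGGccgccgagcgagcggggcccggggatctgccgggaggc
Bid promoter: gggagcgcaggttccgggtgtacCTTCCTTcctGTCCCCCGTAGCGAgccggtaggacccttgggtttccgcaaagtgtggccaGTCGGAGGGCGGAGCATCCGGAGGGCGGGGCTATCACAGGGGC
Bax promoter: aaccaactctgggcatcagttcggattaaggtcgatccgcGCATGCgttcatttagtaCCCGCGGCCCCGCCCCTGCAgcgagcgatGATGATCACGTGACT

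Among the pro-survival genes, the promoter of Bcl2l1 stood far above the others. Its strongest peak scored 23.5 in replicate 1 and 16.6 in replicate 2, which is 20.05 ± 4.93 (SD, n = 2). These scores lie at percentile 98.4 and 97.9 of the genes with a promoter peak in that replicate. Both of its values were above every value of the other 9 members. A second peak over the 5′ end of Bcl2l1 scored 14.4 and 8.44, and another, 1.1 kb into the gene, 8.04 and 5.70. Mcl1, a short-lived survival protein, had 9.37 and 6.78 at its promoter (8.08 ± 1.83), near the 60th percentile of accessible promoters (60.4 and 58.2). Bcl2, the founding member, had 6.85 and 4.05 (5.45 ± 1.98), at percentile 45.6 and 36.2, and its lower replicate was the lowest value of any member. The Bcl2 peak lies in an annotated exon at the 5′ end (chr1:106713941-106714340), and a weaker one 1.8 kb into the gene scored 2.39 and 2.55.

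Of the BH3-only genes, Bcl2l11 and Bid had the highest promoter scores. Bcl2l11 had 15.4 and 11.9 (13.7 ± 2.48, percentile 86.9 and 88.3) just upstream of its 5′ end, and a second peak 1.5 kb into the gene with 11.5 and 8.39. Bid, which links death receptors to the mitochondria, had 14.2 and 10.9 (12.6 ± 2.33) in 1 peak over the 5′ end. Bad, whose product is held inactive by growth factor signalling, had 11.8 and 9.79 (10.8 ± 1.44), but from different peaks in the replicates. The 3 peaks at its 5′ end (between 6941421 and 6942600 on chr19) scored 11.2 and 9.79, 11.8 and 6.59, and 10.3 and 7.26. Those before the 5′ end lie in an intron of the neighbouring gene Gpr137. All 3 are also within 1000 bp of a start site of Gpr137, so the values cannot be given to Bad alone. Bbc3, a target of p53, had 12.0 and 9.04 (10.5 ± 2.12). Pmaip1, another p53 target, had 7.58 and 5.66 (6.62 ± 1.36), close to the median of accessible promoters (7.69 and 5.88).

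The strongest Bbc3 peak does not lie at the gene's annotated 5′ end. It lies 1.1 kb into the gene beside internal start sites and has a G and C share of 80.4%, and a neighbouring peak 1.7 kb into the gene scored 10.9 and 7.75. The peak closest to the outermost start site, 0.4 kb into the gene, scored only 0.622 and 0.644. With the 5′ end as the sole start site, the value of Bbc3 fell from 10.5 to 0.641, while the other 9 members kept theirs.

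The pore-forming genes were among the lowest. Bax had 5.67 and 5.33 (5.50 ± 0.243), at percentile 38.4 and 46.7, and its replicates differed least. Bak1 had 7.64 and 6.19 (6.91 ± 1.03), in a peak (chr17:27028541-27028740) inside exons of both Bak1 and the overlapping gene Ggnbp1, so the peak cannot be given to Bak1 alone. Their joint medians were 6.66 and 5.76, against 12.0 and 9.79 for the 5 BH3-only genes. In each replicate 4 of the 5 BH3-only genes, all but Pmaip1, lay above both pore formers.

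**Figure D1:**
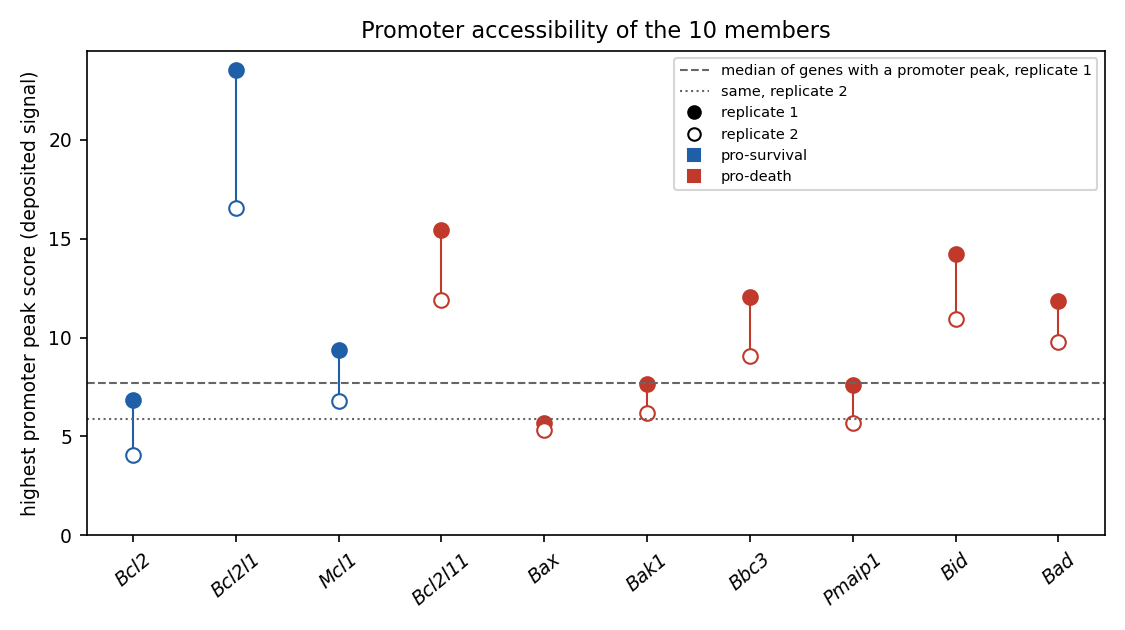
Highest promoter peak score (deposited signal, linear axis) of each member in replicate 1 (filled) and replicate 2 (open), joined by a line, with pro-survival genes in blue and pro-death genes in red. Dashed and dotted lines are the medians of genes with a promoter peak in each replicate (7.69 and 5.88), and Bcl2l1 lies above all other members in both.

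By mean score the order ran Bcl2l1, Bcl2l11, Bid, Bad, Bbc3, Mcl1, Bak1, Pmaip1, Bax and Bcl2. Bcl2l1 and Bcl2l11 were the 1 pair of neighbours in that order whose replicate values did not overlap (16.6 to 23.5 against 11.9 to 15.4). The other 8 pairs overlapped across the replicates. Within the replicates, 6 of these 8 pairs had the same order in both, and the exchanges were between Bad and Bbc3 and between Bax and Bcl2. All 10 members were lower in replicate 2, with a median log2 ratio of -0.40, near the -0.37 of all accessible promoters. The ± values thus hold the shift between the libraries, and its source was not tested.

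As groups, the pro-survival and pro-death promoters overlapped throughout. The pro-survival median was 9.37 in replicate 1 and 6.78 in replicate 2, which with 3 genes is the value of Mcl1. The pro-death median was 11.8 in replicate 1, the value of Bad, and 9.04 in replicate 2, the value of Bbc3. The SD of the difference given next is therefore not that of 1 pair of genes. The pro-survival median was thus lower by 2.36 ± 0.140 (SD, n = 2), but the pro-survival genes spanned 6.85 to 23.5 in replicate 1 and the pro-death genes 5.67 to 15.4. The direction of that difference hung on Bbc3: with the 5′ end of each gene as the sole start site it turned to 1.16 in favour of the pro-survival genes. The medians over all 10 members, 10.6 and 7.91, compare with 7.69 and 5.88 for all accessible promoters.

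Around the genes, 147 shared peaks were found in the 10 windows of gene body and 50 kb flanks. The windows held 23 at Bad, 21 each at Bcl2l1 and Bbc3, 18 at Bak1, 14 each at Mcl1 and Bid, 12 at Bax, 11 at Bcl2, 10 at Bcl2l11 and 3 at Pmaip1. Windows differ in length, and Bcl2 has by far the longest (276 kb, for a gene of 176 kb). Per 100 kb of window, Bad had 20.9 shared peaks, Bbc3 19.1, Bak1 16.5, Bcl2l1 13.9 and Mcl1 13.4, while Bcl2 had 3.98 and Pmaip1 2.80. The median over all protein-coding genes was 3.84, and over genes with an accessible promoter 5.53. Pmaip1 was the sole member under the median of all genes.

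Pooled over the windows of each group, the peaks differed in kind, though single genes of the groups overlapped. Distal peaks, over 1000 bp from any TSS of any gene, made up 32 of the 46 pro-survival peaks (69.6%) and 39 of the 101 pro-death peaks (38.6%), and 56.9% of all shared peaks were distal. Peaks at start sites of neighbouring genes made up 7 of 46 (15.2%) and 40 of 101 (39.6%). The gap was widened by Bad, whose window holds start sites of 13 other protein-coding genes and where 17 of 23 peaks lay at neighbours' start sites and 1 was distal. Without Bad the pro-death share rose to 48.7%. The windows of Bcl2l11 and Pmaip1 held no start site of another protein-coding gene, and 8 of 10 and 2 of 3 of their peaks were distal. Among the pro-survival genes, 15 of 21 peaks were distal at Bcl2l1, 10 of 14 at Mcl1 and 7 of 11 at Bcl2. Of the other pro-death genes, Bid had 7 of 14, Bbc3 10 of 21, Bak1 8 of 18 and Bax 3 of 12. At Bax, 7 of the 12 lay at neighbours' start sites.

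Per 100 kb, Bcl2l1 had 9.93 distal peaks, Mcl1 9.58 and Bbc3 9.11, all beyond the 98th percentile of genes (99.2, 98.9 and 98.7). Bak1 had 7.33, Bcl2l11 5.86 and Bid 5.60. Bax (2.85) and Bcl2 (2.54) lay just above the median of genes with an accessible promoter (2.07), and Pmaip1 (1.87) and Bad (0.909) below it. The median was 9.58 for the pro-survival and 5.60 for the pro-death genes, yet it fell to 6.06 without Bcl2l1 and to 6.23 without Mcl1. With a reach of 100000 bp the medians were 5.38 and 4.65. With the peaks of replicate 1 alone they were 10.5 and 8.24, a difference of 2.30 in place of 3.98. The count of Bcl2l1 includes weak peaks that lie close together between 18.2 and 20.2 kb into the gene. Their mean scores ran from 0.277 to 0.649, at percentile 0.09 to 9.83 of all distal peaks.

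**Figure D2:**
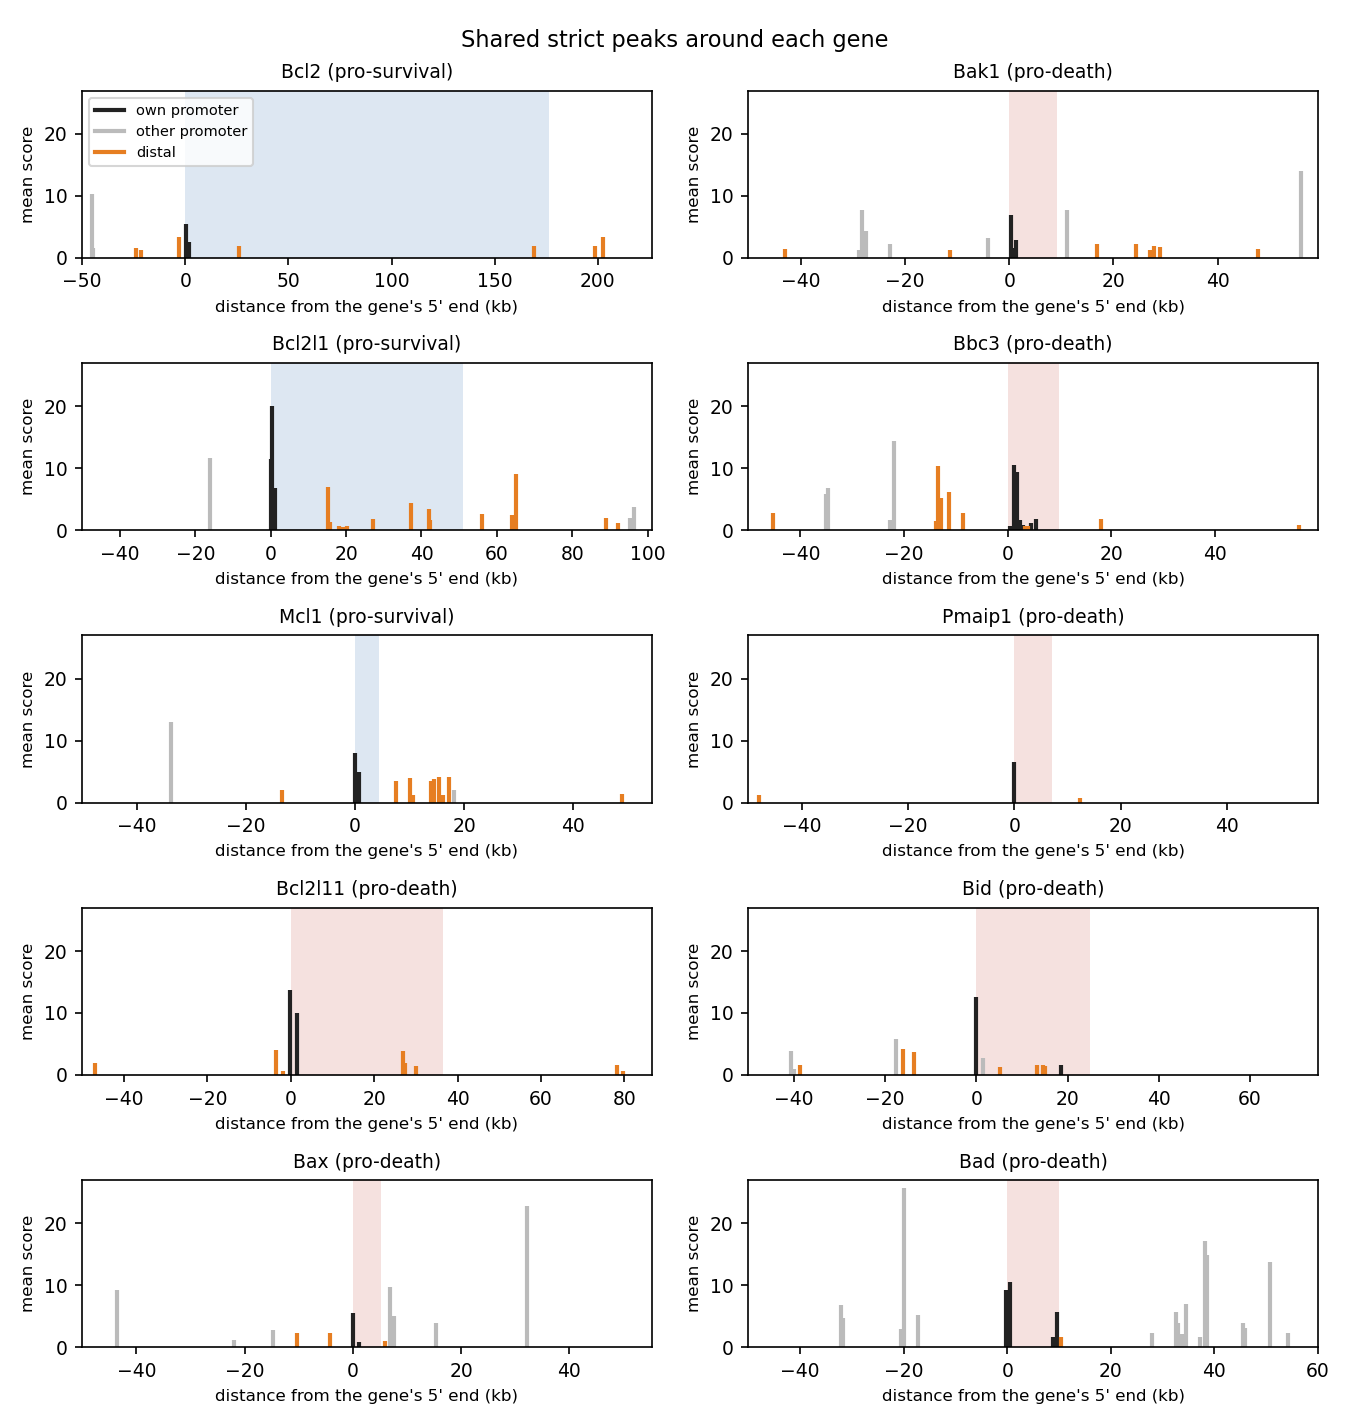
Position of every shared strict peak in the window of each member, as distance from the gene's 5′ end in kb along its strand, with the mean score of the 2 replicates as bar height. The shaded span is the gene body, and the long run of distal peaks (orange) inside and beyond Bcl2l1, the cluster downstream of Mcl1 and the sparse window of Pmaip1 can be seen.

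**Figure D3:**
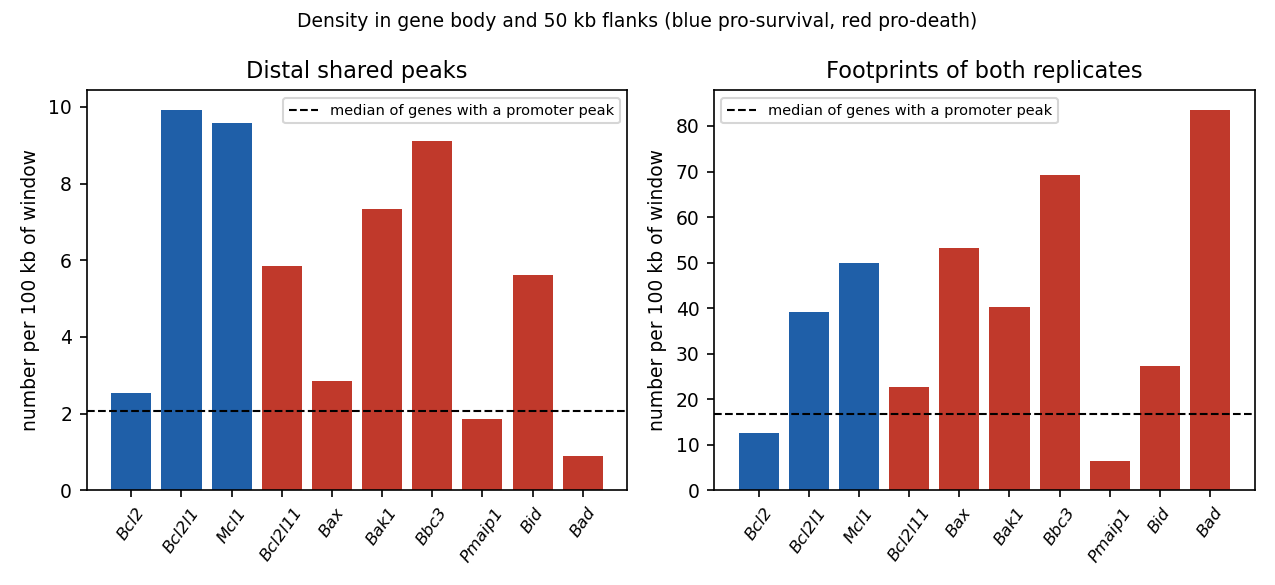
Distal shared peaks (left) and footprints found in both replicates (right) per 100 kb of window for each member, pro-survival in blue and pro-death in red. The dashed lines are the medians of genes with a promoter peak (2.07 and 16.8), and Bad is the lowest on the left and the highest on the right.

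The highest distal peaks in each gene's window gave the detail. Lying in a window does not show which gene a peak serves. At Bcl2l1, the strongest was an intergenic peak 65 kb downstream of the 5′ end, beyond the end of the gene, with 9.33 and 8.72 (9.02 ± 0.432, percentile 99.2 of distal peaks). An intronic peak 15.2 kb into the gene had 8.65 and 5.17, another at 37.2 kb had 6.24 and 2.64, and another at 41.9 kb had 4.50 and 2.38. All 10 distal peaks inside the Bcl2l1 gene were higher in replicate 1, while 45.1% of all distal shared peaks were higher in replicate 2. The intergenic peaks beyond the gene were split, and one at 63.9 kb was higher in replicate 2 (1.95 and 3.03).

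Mcl1 had a compact cluster. Of its 10 distal peaks, 8 lay between 7.5 and 17.2 kb downstream of the 5′ end, in intergenic sequence past the short gene. The highest were at 17.2 kb (4.68 and 3.66), 15.4 kb (4.50 and 3.66), 10 kb (4.96 and 2.90) and 14.5 kb (4.75 and 2.84). Their percentiles among all distal peaks ran from 89.4 to 91.5. The peak nearest to the gene, at 7.5 kb, was higher in replicate 2, with 3.15 and 3.79. The cluster ends beside a peak at a start site of Adamtsl4, at 18.1 kb.

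Around Bcl2, the distal peaks were few and moderate. The highest were 202.5 kb downstream of the 5′ end (3.06 and 3.67) and 3.1 kb upstream (2.91 and 3.80), at percentile 86.3 and 86.2 of distal peaks. Inside the long gene, 2 distal peaks were found, at 26.2 kb (2.14 and 1.52) and 169.2 kb (1.44 and 2.22). Of the 7 distal peaks, 5 scored higher in replicate 2, and over all distal shared peaks 45.1% did so.

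Of the pro-death genes, Bbc3 had in its window the strongest distal peak found around any member. A group of intergenic peaks upstream of the gene led with 11.7 and 8.93 at 13.4 kb (10.3 ± 1.96, percentile 99.5), nearly the level of the Bbc3 promoter. It was followed by 6.67 and 5.75 at 11.4 kb and 5.87 and 4.38 at 12.8 kb. These peaks lie between Bbc3 and a peak at a start site of Ccdc9, 21.9 kb upstream. At Bid, the highest were 5.18 and 3.08 in an exon of Mical3, 16 kb upstream, and 4.28 and 3.0 at 13.7 kb upstream. At Bcl2l11, a peak 3.4 kb upstream, in an intron of Acoxl, had 4.2 and 3.96, and an intronic one at 26.9 kb had 4.74 and 2.92. The highest distal peaks of Bax and Bak1 were lower than those of the members named so far, at percentile 73.9 and 71.5 of all distal peaks. They had 2.00 and 2.69 at Bax, 4.2 kb upstream, and 2.21 and 2.22 at Bak1, 16.9 kb downstream. Pmaip1 had 2 distal peaks, both weak, with 0.844 and 1.63 at 47.9 kb upstream and 0.80 and 0.608 at 12.4 kb downstream.

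Footprints found in both replicates numbered 486 in the 10 windows (968 in replicate 1 and 850 in replicate 2), of which 85.4% lay in shared peaks, compared with 83.1% over the genome. At least 1 such footprint was present in 120 of the 147 shared peaks (81.6%), with a share of 85.5% over all shared peaks, so the members' peaks were not richer in this respect. Bad had the most, 92 (83.6 per 100 kb), then Bbc3 with 76 (69.2), Bcl2l1 with 59 (39.1), Bax with 56 (53.2) and Mcl1 with 52 (49.8). Bak1 had 44, Bcl2 35, Bid 34, Bcl2l11 31 and Pmaip1 7. The median gene had 11.4 per 100 kb, and Pmaip1 alone was below it, with 6.54. Over genes with an accessible promoter the median was 16.8, and Bcl2, with 12.7, was below that too.

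The share of each window under a false discovery rate of 0.001 was read from the deposited tracks without peak calls. As with footprints per 100 kb, Bad and Bbc3 stood highest and Bcl2 and Pmaip1 lowest. The order of the other members was not the same. Bax, with 53.2 footprints per 100 kb, had 6.76% in replicate 1 and 5.67% in replicate 2. Bad had 13.8% in replicate 1 and 10.3% in replicate 2, Bbc3 9.32% and 9.85%, and Bcl2l1 8.64% and 7.08%. Bcl2 had 2.22% and 2.23%, and Pmaip1 1.69% and 1.10%, beside medians of 2.07% and 1.98% over all genes. By their ratio, the replicates parted most at Bid, with 9.26% and 3.9%, and at Bcl2l11, with 7.78% and 4.49%.

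The sequence of the peaks was searched on both strands for 21 transcription factor consensus motifs, and a match was counted as footprinted when it overlapped a footprint of both replicates. The words were GGGGCGG for SP/KLF factors, GCGNGGGCG for EGR, CCAATNN for NFY (the first N only C or G, the second only A or G), GCGCANGCG for NRF1, CAGCTG or CAGGTG for E proteins, GGAAGT for ETS and TGTGGTT for RUNX. MYB factors were searched with TAACGG or TAACTG, Ikaros with TGGGAA, TCF/LEF with ATCAAAG and FOXO with GTAAACA. The GATA word was AGATAA. STAT factors were searched with TTCNNNGAA and AP-1 with TGACTCA. The cyclic AMP response element (CRE) was TGACGTCA, and the glucocorticoid receptor word was ACANNNTGT. E2F had TTTCCCGC or TTTGGCGC, and YY1 had AANATGGC. Longer consensus forms were used for CTCF, NF-kB and the p53 repeat unit. Matches can overlap each other, as SP/KLF and EGR words do in the Bcl2l11 and Bbc3 promoters, and a match is a description of letters, not a binding site.

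Of 506 matches in the members' peaks, 175 (34.6%) were footprinted, with 30.2% over all shared peaks. The share was 23.1% (40 of 173) around pro-survival and 40.5% (135 of 333) around pro-death genes. The pro-death peaks also lay more often at start sites, and whether that bears on the shares was not tested. SP/KLF matches were footprinted in the window of every member, in 33 of 147 peaks (22.4%) against 12.9% of all shared peaks. In windows of 300 bp, that word is found in 35.7% of all promoter peaks and 6.63% of distal ones. EGR matches were present in 11.6% of the members' peaks and in 5.36% of all shared peaks, and 15 of 19 were footprinted (78.9%, and 54.1% over the genome). The EGR word too is found mostly at promoters, in 9.93% of promoter and 0.963% of distal windows of 300 bp. The members' peaks had a median width of 260 bp, and all shared peaks 220 bp. The shares of peaks with a match, for these and the other words, do not allow for width. At the members' own promoters, SP/KLF matches were footprinted in 3 of 7 pro-survival peaks (1 each at Bcl2, Bcl2l1 and Mcl1) and in 7 of 22 pro-death peaks (at Bad, Bax, Bbc3, Bcl2l11, Bid and Pmaip1). Bak1 had its footprinted SP/KLF matches in other peaks of the window.

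In the promoters printed above, the matches can be read directly. The capitals of Bcl2l11 cover 2 SP/KLF words, the second overlapping an EGR word, and part of an NFY word. Those of Bbc3 touch 4 SP/KLF words, 1 EGR word and 2 NF-kB matches that overlap each other. Bcl2l1 shows an NFY word wholly in capitals (bases 34 to 40), with 2 SP/KLF words and 1 EGR word partly in capitals. Mcl1 has 1 SP/KLF word wholly in capitals (bases 101 to 107), and Bax 1 of these (bases 68 to 74) and 1 NRF1 word partly in capitals. At Bid, a footprinted SP/KLF word starts in the last printed bases and runs into the annotated exon.

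Words with no or few footprinted matches were set beside their share over the genome. FOXO, GATA and glucocorticoid receptor words had 3, 13 and 4 matches in the members' peaks, and 0 of them were footprinted. Over the genome, 7.07%, 7.57% and 13.99% of such matches were. Of 16 matches to the p53 repeat unit, 3 (18.75%) were footprinted, 1 of them at the Pmaip1 promoter, where the share over the genome was 11.1%. Further, 0 of 147 peaks held 2 units within 13 bp of each other, a form found in 0.0541% of all shared peaks. STAT words lay in 10.9% of the members' peaks and 6.48% of all shared peaks, with 2 of 21 matches footprinted (9.52%, and 16.8% over the genome). These counts concern letters of the reference sequence, and the lack of a match tells nothing about the factor.

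E-protein words were the most frequent, with 124 matches in 68 of the 147 peaks (46.3%, and 42.7% of all shared peaks). Of the matches 27 were footprinted (21.8%, and 17.4% over the genome), in 23 peaks from 9 of the 10 windows. A footprinted match lay in 6 of 32 pro-survival and 7 of 39 pro-death distal peaks, including the intronic Bcl2l1 peak at 15.2 kb with 2 of them. ETS words were footprinted in 16 peaks (10.9%, and 6.21% of all shared peaks), 4 around pro-survival and 12 around pro-death genes. A CRE word was footprinted in 3 peaks (2.04%, and 1.21% of all shared peaks). They lay at the Pmaip1 promoter, in the Bid peak 16 kb upstream, next to an ETS word, and at the start of Id1 in the Bcl2l1 window. Of 3 CRE matches 3 were footprinted, and over the genome 84.8% were.

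CTCF, the factor that anchors chromatin loops, had an exact consensus match in 15 of the 147 peaks (10.2%), and all 15 were footprinted. Over the genome 13.4% of shared peaks held a footprinted match, and 94.8% of matches were footprinted. In windows of 300 bp, the consensus is found in 19.7% of distal and 6.35% of promoter peaks. At Bcl2, 3 of 7 distal peaks had an exact match and 2 more had one that was 1 letter off. The 4 distal peaks that follow are printed because each is the strongest distal peak in its gene's window or, at Bcl2, the distal peak closest to the promoter. The stretches are chr2:152766581-152766780 (minus strand, Bcl2l1), chr3:95675901-95676060 (plus strand, Mcl1), chr7:16294881-16295060 (plus strand, Bbc3) and chr1:106717341-106717500 (minus strand, Bcl2), all intergenic on GRCm38.p6, with capitals for bases in footprints of both replicates.
Bcl2l1 distal, 65 kb downstream: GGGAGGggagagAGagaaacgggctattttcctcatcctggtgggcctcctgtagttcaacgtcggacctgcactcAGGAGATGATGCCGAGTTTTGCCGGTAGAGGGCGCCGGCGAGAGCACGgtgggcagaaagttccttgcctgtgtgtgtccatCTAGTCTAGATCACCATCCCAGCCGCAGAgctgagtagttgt
Mcl1 distal, 17.2 kb downstream: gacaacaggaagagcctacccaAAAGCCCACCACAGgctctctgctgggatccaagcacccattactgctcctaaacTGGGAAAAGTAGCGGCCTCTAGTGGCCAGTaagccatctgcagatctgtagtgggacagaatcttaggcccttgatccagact
Bbc3 distal, 13.4 kb upstream: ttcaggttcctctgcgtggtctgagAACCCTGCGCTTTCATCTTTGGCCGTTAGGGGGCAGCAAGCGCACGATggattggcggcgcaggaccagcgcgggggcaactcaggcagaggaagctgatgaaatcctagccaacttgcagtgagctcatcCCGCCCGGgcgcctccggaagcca
Bcl2 distal, 3.1 kb upstream: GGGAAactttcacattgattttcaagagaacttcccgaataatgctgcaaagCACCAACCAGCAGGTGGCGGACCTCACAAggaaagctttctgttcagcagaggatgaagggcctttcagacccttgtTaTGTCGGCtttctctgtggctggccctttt

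The Bcl2l1 and Bcl2 stretches hold an exact CTCF match wholly in capitals, at bases 98 to 111 and 59 to 72. In the Bcl2 stretch, an E-protein word at bases 63 to 68 lies inside the CTCF match, so the same protected bases count for both. The Mcl1 and Bbc3 peaks have a footprinted match that is 1 letter off the CTCF consensus. The Mcl1 stretch also has an Ikaros word in capitals (bases 78 to 83), and the MYB word in capitals in the Bbc3 stretch (bases 48 to 53) lies in the same footprint as the CTCF-like letters.

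Peaks with a CTCF match also differed in the balance of the replicates. Of the 15 peaks with an exact match, 9 scored higher in replicate 2, with a median log2 ratio of 0.13. Of the 23 peaks with a match 1 letter off, 10 did (-0.11), and of the 109 with neither, 14 did (-0.39). Over all shared peaks the shares were 70.8%, 57.9% and 18.6%, in the same order as among the members. The Bcl2 peaks at 3.1, 169.2 and 202.5 kb were all higher in replicate 2 and all held an exact match. The class of matches 1 letter off was added after the data were seen. It held 15.6% of the members' peaks and 18.1% of all shared peaks. A ratio of the 2 libraries has no replicate of its own, and what sets it was not tested.

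**Figure D4:**
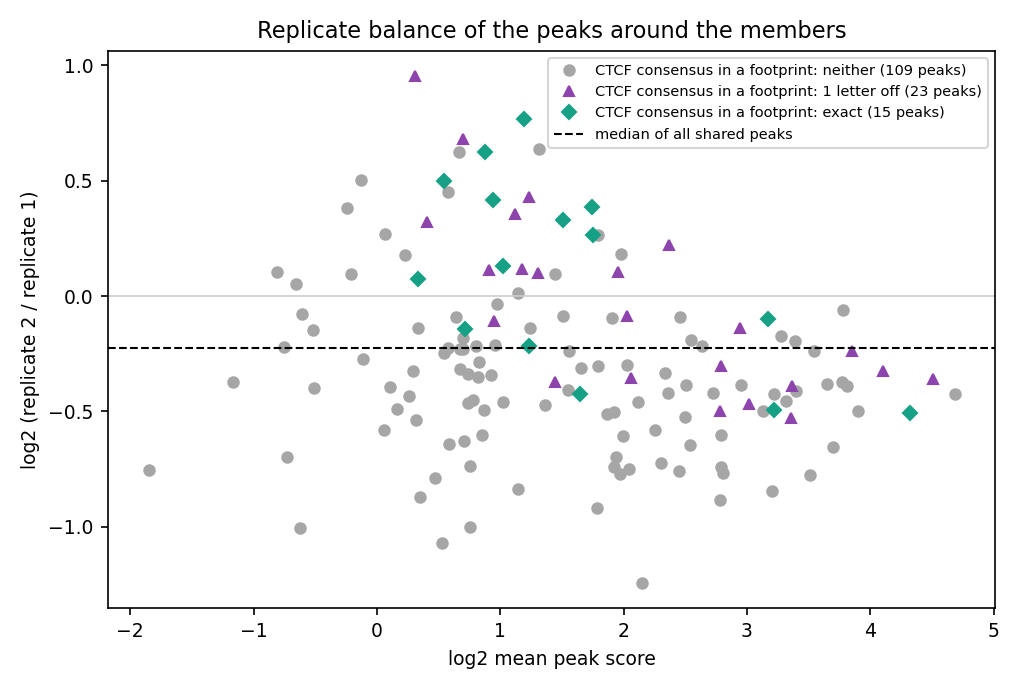
Log2 ratio of replicate 2 to replicate 1 against log2 mean score for the 147 shared peaks around the members, by whether a footprinted CTCF consensus match is exact (15), 1 letter off (23) or missing (109). The dashed line is the median of all shared peaks (-0.22), and most peaks with neither kind of match lie below 0.

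Other genes of the death machinery were read in the same way, from lists that served to place the members. For comparison, 59.0% of all protein-coding genes had a promoter peak in both replicates, and the medians of those accessible promoters were 7.69 and 5.88. Of 13 other Bcl2 family genes, 11 had a promoter peak in both replicates, and Bcl2l10 and Bok had none in either. Their level was mostly low, with medians of 1.67 and 0.930. The highest were Bcl2l12 (15.8 and 11.6), Bcl2l13 (10.7 and 7.04) and the BH3-only gene Bmf (6.75 and 5.99). Bcl2a1a, Bcl2a1b and Bcl2a1d are near-identical copies, so reads could be split between them and their values (all under 1.7) are uncertain.

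All 14 listed genes of the mitochondrial death pathway had a promoter peak in both replicates, with medians of 12.1 and 8.72. Apaf1, the scaffold of the apoptosome, had 24.9 and 17.4, Diablo, which frees caspases from their inhibitors, 19.2 and 13.96, and cytochrome c (Cycs) 16.3 and 12.3. Of the death receptor pathway, 7 of 7 were accessible (medians 6.14 and 5.04), led by Fadd (15.0 and 9.90), Ripk1 (11.9 and 9.38) and Casp8 (6.99 and 6.30). Of the regulators upstream of the family, 9 of 9 were accessible (medians 9.56 and 6.70), led by Foxo3 (16.1 and 10.9), Trp53 (12.8 and 9.36) and E2f1 (10.1 and 7.71). Apaf1 was at the level of Bcl2l1, the highest of the 10 members.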

How the data were processed

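The authors deposited interval files on mm10 for each of 2 thymus samples. What was used to align reads and to call peaks and footprints is not given in the sources used here. The deposited peak lists hold a signal score per peak, in whole multiples of 1 step (0.00741 and 0.00608, within 0.1 of a step for 100% of scores under 10). Depth is unknown; a median peak held 213 and 226 steps. The deposited tracks give a false discovery rate (FDR). The deposited footprint files list intervals with a fixed value of 0.01, of which the positions alone were read.

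The strict list (fewer entries) was used, with overlapping entries joined. Peaks and footprints were shared at 1 bp of overlap. A promoter value is the highest score within 1000 bp of any TSS in GENCODE M21. Windows are gene bodies and 50000 bp either side, and sequences come from RefSeq GRCm38.p6. With 1 group of 2 samples, values are given per replicate with mean ± SD and no test.

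The members and lists were chosen with earlier results of these data known. All 10 members are named, with up to 5 of the highest distal peaks for each, and for each list the 3 highest genes and those without a peak; other peaks named, and further marker genes, were chosen after their values were seen. Alternatives changed the promoter reach, start sites, peak list, overlap, window, footprint rule, FDR and replicates. Steps were tested on simulated data. Sequences were read with samtools 1.23.1 and pysam 0.24.0, tables with pandas 2.3.3 and numpy 2.4.6 in Python 3.11.15, and figures drawn with matplotlib 3.10.9.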

Additional observations from a re-analysis of the deposited data

How the results depend on the processing

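All 10 members kept a promoter peak in both replicates under every alternative tried (promoter reach of 500 or 2500 bp, 5′ end only, looser list, either replicate alone). The difference of promoter medians, pro-survival minus pro-death, was -2.36; it was 1.16 with the 5′ end only, -14.4 percentile points on ranks among accessible promoters, and ranged from -2.46 to -2.26 with a replicate left out. The 147 peaks fell to 96 without those near other genes' start sites, and ranged from 169 to 195 in single replicates. The 486 footprints ranged from 850 to 968 in single replicates. Of the 175 footprinted motif matches, 115 lay wholly inside a footprint, and the count was 215 with either replicate alone. The median share of a window under FDR 0.001, 6.62%, was 8.88% at FDR 0.05 and 8.36% with 25000 bp flanks. Peaks per 100 kb, pro-survival minus pro-death median, were 2.00 but turned to -0.15 with the 50000 highest peaks, -1.29 with 25000 bp and -3.14 with 100000 bp flanks, and to -3.03 without replicate 2 (2.97 without replicate 1), so no direction is given for all peaks together.

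For distal peaks, with alternatives chosen after seeing the data, the difference stayed positive, from 0.45 per 100 kb without Bcl2l1 to 7.08 with 25000 bp flanks (main 3.98), and the gap in the distal share ran from 20.8 points without Bad to 35.5 without Bcl2l11 (main 31.0). No paired analysis was possible because there is 1 group only. Limits: 2 samples of 1 kind, no known depth, and no expression data, so an open promoter is not a measure of its gene's activity. How reads of CAST alleles bear on scores and footprints was not tested.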

Other observations

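The strongest peaks in several windows belonged to neighbours. At Bad, a peak at the start of Esrra, a nuclear receptor gene, scored 29.5 and 22.0, above the 11.8 and 9.79 of Bad, and a pair at Fkbp2 scored 19.2 and 15.3 and 17.5 and 12.4. At Bax, a peak at Gys1 and Ruvbl2 scored 25.6 and 19.95, and one at the ferritin gene Ftl1 10.2 and 9.09. At Bak1 the highest was at Ggnbp1 and Zbtb9 (15.9 and 12.2), at Bbc3 at Ccdc9 (15.6 and 13.2), at Bcl2 at Kdsr (12.1 and 8.37) and at Mcl1 at Ensa (15.9 and 10.1). At Bcl2l1, Bcl2l11, Bid and Pmaip1 the highest peak was the gene's own.

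Peaks found in 1 replicate alone were unevenly spread. In the 10 windows, 47 of 195 peaks of replicate 1 (24.1%) and 14 of 169 of replicate 2 (8.28%) had no partner, while over the genome the shares were 16.2% and 20.2%. Of the 47, 12 lay at Bcl2l11, 10 at Bid, 9 at Bcl2l1 and 8 at Bad. Their median score was 0.704 at Bcl2l11 and 0.907 at Bid, and 22 of the 47 were in the looser list of replicate 2. A peak of replicate 2 at Bax, with a score of 3.17, had no partner in either list of replicate 1.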
